A study of Mus musculus with 36 samples.

Results

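The AP-1 and immediate-early factors are described here through 10 genes, chosen by their symbols. These are the Fos family genes Fos, Fosb, Fosl1 and Fosl2, the Jun family genes Jun, Junb and Jund, the small Maf gene Maff, and Egr1 and Myc. The deposited count table held all 10 among its 55358 genes, and all 10 were among the 15114 genes that passed the filter on low counts. RNA was sequenced from keratinocytes, the main cell type of the epidermis, taken from newborn mice. WT cells were primary cells of Pkp4+/+ mice, and PKP4-KO cells those of Pkp4-/- mice on a C57BL/6J background. In the latter an exon had been removed from the gene of plakophilin 4, a protein of the junctional plaque. Rescue cells were PKP4-KO cells made to express human PKP4 with a GFP tag from a lentiviral vector and selected with puromycin. The vector and the selection cannot be told apart from the protein in any comparison with Rescue. Each kind of cell was kept 24 h or 72 h either in low calcium medium (LCM) or in high calcium medium (HCM, the same medium with added calcium, in which keratinocytes form junctions and begin to differentiate). The library titles carry LD for the 24 h groups and HD for the 72 h groups. Anything else these letters stand for cannot be told apart from time. The 12 groups had 3 libraries each, stated to be biological replicates, and all of them were grown with serum, EGF, insulin, hydrocortisone and cholera toxin.

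Fos and Jun proteins pair through leucine zippers and bind DNA as the dimer AP-1. Jun proteins can also pair among themselves, whereas Fos proteins need a Jun partner. Many of these genes are immediate-early genes: their transcription starts within minutes of a growth factor or stress signal, through kinases of the MAPK pathways acting on factors already present, and their mRNAs are short-lived. Fosl1 and Fosl2, which lack the strong activation domain of Fos, respond later and stay expressed longer. Maff binds related DNA sites but has no activation domain of its own. Egr1 is a zinc finger factor, and Myc pairs with Max to drive growth and ribosome production. In the epidermis, AP-1 members differ between the layers and act on genes of the cornified envelope such as involucrin.

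The libraries held 13602728 to 22467187 counts. Pkp4 had 326 to 1443 counts in WT, 44 to 232 in PKP4-KO and 101 to 273 in Rescue libraries. The GFP-PKP4 sequence had 0 to 113, 3 to 112 and 1902 to 15325 counts in the same order, so that all 36 libraries matched their genotype labels. The 8 keratinocyte markers summed to 24347 to 61883 CPM (counts scaled to a common library size). Of the 28 markers of other cell types, Tyr and Cd207 had no read, and fibroblast markers summed to at most 13.1 CPM. Cd68 (6.77 to 177 CPM, scaled), which macrophages carry, was highest in Rescue, while Ptprc, found on nearly all leukocytes, was at 0 in 22 libraries and reached 0.295 CPM at most. Libraries differed in the ratio of short to long genes, measured as the median log2 CPM of 596 genes under 1500 bases minus that of 2917 genes over 6000 bases. It was 2.53 to 2.74 in PKP4-KO at 72 h HCM and at most 2.19 elsewhere, and 7 libraries stood apart, above both others of their group by over 0.4. These were WT 24 h HCM replicate 2, WT 72 h HCM replicate 3, PKP4-KO 24 h LCM replicate 1, PKP4-KO 24 h HCM replicate 3, PKP4-KO 72 h LCM replicate 2, Rescue 24 h LCM replicate 3 and Rescue 72 h LCM replicate 2. In these 7 groups the library that stood apart had the lowest Jund level in 7, the lowest Fos, Jun and Myc levels in 6 each, and the highest Fosl1 level in 5. On the low side, WT 24 h HCM replicate 1, PKP4-KO 24 h HCM replicate 2 and Rescue 72 h LCM replicate 1 lay below both others of their group by over 0.4. They are not among the 7 and were kept. The part of the ratio of short to long genes in the results was not tested. Calls of the 10 genes that were lost without the 7 libraries are given with both values. In bulk RNA, fewer cells expressing a gene and less of its RNA per cell cannot be told apart.

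**Figure D1:**
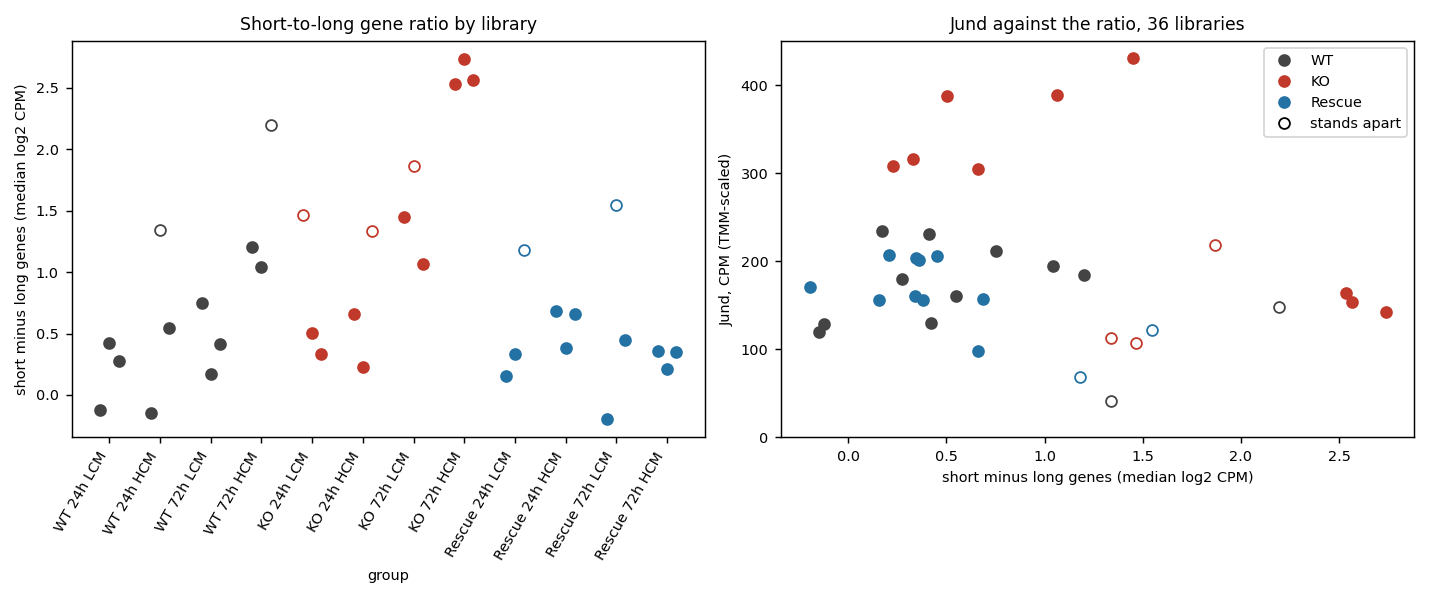
Ratio of short to long genes (median log2 CPM of short minus long genes) by library in the 12 groups (left), and the level of Jund (CPM scaled with TMM factors) against it (right). Open circles are the 7 libraries that stood apart, colours are genotypes. PKP4-KO at 72 h HCM lies at 2.53 to 2.74, above all other libraries, and each open circle is the lowest of its group for Jund.

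Per kilobase of gene length and averaged over 36 libraries, Jund (115 CPM per kb), Junb (99.5) and Myc (69.5) had the highest levels. Fosl1 (16.8), Maff (11.9), Fosl2 (7.42), Fos (6.10) and Jun (6.07) followed. Egr1 (1.58) and Fosb (0.118) were lowest, and Fosb had 0 to 44 counts per library, so that its levels rest on few reads. Jund, Junb and Myc held ranks 1 to 4 in every group and Fosb was last in all 12. The gene length in the table equals the merged exons of the reference annotation for 4 of the 10 genes. For Fosl2 it is 9680 against 10397 bases, and for Maff 2594 against 3185. Below, levels are CPM scaled with TMM factors, compared between groups of libraries and not between genes.

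The range over the 12 group means was widest for Fosl1 (16.8-fold, from 6.38 ± 0.996 in WT at 72 h LCM to 107 ± 44.5 in Rescue at 72 h LCM, SD, n = 3). Maff followed (16.2-fold, from 5.93 ± 0.583 in PKP4-KO at 24 h HCM to 96.1 ± 15.5 in PKP4-KO at 72 h HCM). It was narrowest for Fosl2 (2.72-fold), Myc (3.15-fold), Jund (3.24-fold) and Jun (3.67-fold). With the groups of a gene ordered by their mean, neighbours whose 3 libraries did not overlap were counted. There were 4 among the 11 pairs of neighbours for Junb and 3 each for Jun, Egr1 and Myc. Fos, Fosl1, Jund and Maff had 2 each, Fosl2 had 1 and Fosb 0. Such pairs were not counted over all genes, so these numbers do not set any gene apart from the rest. Jun had its 4 highest means in the 4 PKP4-KO groups. The lowest of these, at 72 h HCM, did not overlap with the next group, WT at 72 h LCM, but 1 library of PKP4-KO at 24 h LCM (19.0 CPM) lay within that group's range. Fosl2 had its 4 lowest means in the PKP4-KO groups, but the highest of these, at 72 h LCM, overlapped with WT at 72 h HCM. Egr1 had a single group above all others, WT at 72 h HCM.

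**Figure D2:**
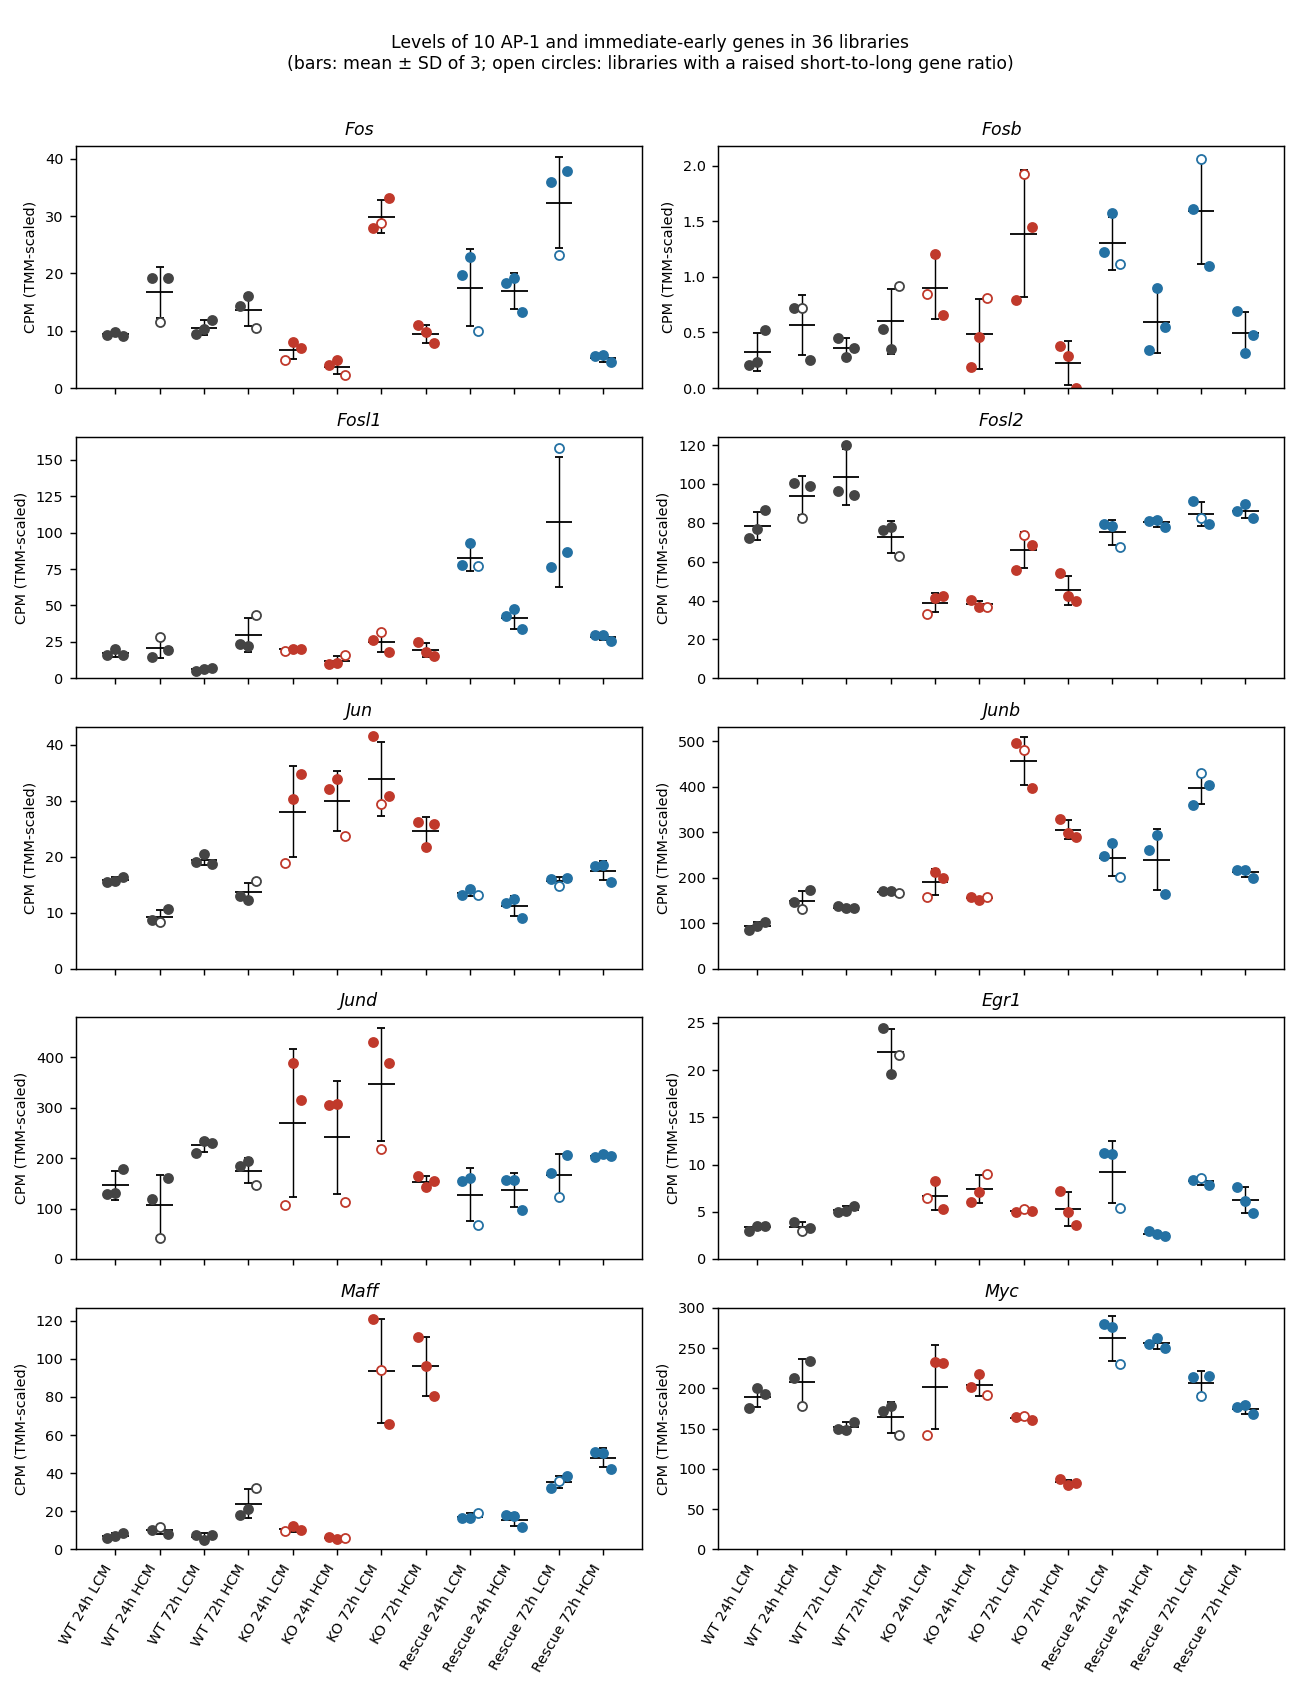
Levels of the 10 genes (CPM scaled with TMM factors, linear axes from 0) in the 36 libraries, by group. Points are libraries, horizontal lines means and bars SD of 3, and open circles the 7 libraries that stood apart. Jun lies at 19.0 to 41.5 CPM in PKP4-KO against 8.33 to 20.5 in WT, and Maff at 66.0 to 121 in PKP4-KO at 72 h against 4.71 to 32.4 in WT.

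Promoter sequence is shown for Jun and Fosl2, which moved in opposite directions in PKP4-KO, and for Fos and Maff, which had the widest changes with time in PKP4-KO. Each line is the 150 bases before the annotated start of the main transcript, read from GRCm39 on the strand of the gene and written 5′ to 3′, with matches to searched motifs in capitals.
Jun, reverse strand, chr4:94940460-94940609: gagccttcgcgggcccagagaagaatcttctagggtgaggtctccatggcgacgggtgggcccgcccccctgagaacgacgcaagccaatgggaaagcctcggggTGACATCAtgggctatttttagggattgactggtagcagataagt
Fosl2, forward strand, chr5:32292557-32292706: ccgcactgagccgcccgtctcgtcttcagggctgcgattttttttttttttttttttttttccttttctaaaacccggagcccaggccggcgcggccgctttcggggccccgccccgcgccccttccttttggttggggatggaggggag
Fos, forward strand, chr12:85520508-85520657: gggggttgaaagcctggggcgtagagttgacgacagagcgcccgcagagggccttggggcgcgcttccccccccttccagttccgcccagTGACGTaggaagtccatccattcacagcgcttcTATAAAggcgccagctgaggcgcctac
Maff, forward strand, chr15:79231570-79231719: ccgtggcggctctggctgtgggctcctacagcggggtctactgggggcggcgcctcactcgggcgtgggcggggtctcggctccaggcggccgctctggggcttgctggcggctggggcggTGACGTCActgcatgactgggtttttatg
Searched on both strands in the 250 bases before the start were the AP-1 motifs TGANTCA and TGANNTCA and the CRE core TGACGT, which overlaps with the second of these. Also searched were the CArG box of SRF, CACGTG (the E-box of Myc) and TATAAA. They occur in 6.17%, 11.2%, 6.49%, 1.40%, 6.26% and 11.9% of 21770 promoters of protein-coding genes. Jun held TGACATCA 45 to 38 bases before its start, and Maff held TGACGTCA 29 to 22 bases before it. Fos held TGACGT 60 to 55 bases and TATAAA 27 to 22 bases before its start. Jund held 2 matches to TGANNTCA, and TGACGT as well. Maff also held CACGTG 191 to 186 bases before its start, outside the stretch shown. Fosl1, Junb and Myc held TATAAA on one or the other strand. No searched motif was found in the windows of Fosl2 and Fosb. TGANTCA and the CArG box were in none of the 9 windows searched (Egr1 was not searched), which says only that these letters are not in these windows.

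Loss of PKP4 went with higher Jun and lower Fosl2 in all 4 culture conditions, and with higher Maff and Junb at 72 h. At 72 h the calls of Jun, and that of Junb in HCM, were lost without TMM factors. Those of Fosl2 at 72 h were lost with offsets for gene length. Fos, Fosl1 and Egr1 were called in opposite directions in different conditions. Calls are p-values under 0.05 from the quasi-likelihood test of edgeR after Benjamini-Hochberg adjustment over the 15114 genes. In LCM at 24 h, 5 of the 10 genes were higher and 1 was lower in PKP4-KO, where 19.7% of all tested genes were higher and 20.6% lower (40.2% together). In HCM at 24 h, 3 were higher and 4 lower (20.7% and 22.2% of all genes, 42.8% together). In LCM at 72 h, 6 were higher and 1 lower (21.3% and 23.8%, 45.1% together), and at 72 h HCM 3 and 3 (21.9% and 29.9%, 51.8% together). Without TMM factors, which scale libraries for RNA composition, the last were 1 and 6. With so many genes called, shares of 6 or 7 in 10 lie little above the background. The libraries of the groups did not overlap for 50.6%, 46.7%, 55.2% and 58.2% of all genes in the same order. The median log2 fold change of the 10 genes was 0.70, -0.14, 1.15 and -0.57 in the same order, beside 0.0033, -0.0016, 0.02 and -0.07 over all genes. TMM factors were 0.48 to 0.55 in PKP4-KO at 72 h HCM and 0.71 to 1.39 elsewhere. Leaving them out shifted the median of all genes by -0.23, 0.06, -0.37 and -0.76, which moves every gene of a comparison alike.

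Among the Jun genes, Jun was at 15.4, 15.6 and 16.4 CPM in WT and 19.0, 30.4 and 34.7 in PKP4-KO at 24 h LCM (log2 fold change 0.83, SE 0.17, adjusted p = 3.54e-04). At 24 h HCM it was at 8.70, 8.33 and 10.7 against 32.0, 34.0 and 23.8, a 3.24-fold difference (log2 fold change 1.70, SE 0.18, adjusted p = 6.66e-09). At 72 h LCM it was at 19.1, 20.5 and 18.7 against 41.5, 29.4 and 30.8 (log2 fold change 0.80, SE 0.17, adjusted p = 4.16e-04). In HCM at 72 h it was at 12.99, 12.3 and 15.6 against 26.3, 21.6 and 25.8 (log2 fold change 0.86, SE 0.18, adjusted p = 2.33e-04). No PKP4-KO library overlapped with WT in any of the 4 conditions, although at 24 h LCM the library that stood apart lay just above the WT range. Each of the 4 calls held with any library left out and without the 7 libraries. Without TMM factors the calls at 72 h were lost (0.42, adjusted p = 0.153 in LCM and 0.11, adjusted p = 0.706 in HCM).

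Junb, which restrains proliferation in epidermis, was at 137, 133 and 133 CPM in WT and 495, 479.5 and 397 in PKP4-KO at 72 h LCM (log2 fold change 1.77, SE 0.16, adjusted p = 4.83e-10). It was also higher at 24 h LCM, with 85.7, 93.8 and 103 against 158, 213 and 199.7 (log2 fold change 1.02, SE 0.16, adjusted p = 6.41e-06). In HCM at 24 h the groups overlapped, with 146, 131 and 173 against 157, 151 and 157 (log2 fold change 0.05, adjusted p = 0.846). In high calcium at 72 h it was at 171, 171 and 166 against 328, 299 and 290.1 (log2 fold change 0.85, SE 0.16, adjusted p = 5.28e-05). That call was lost without TMM factors (0.08, adjusted p = 0.739). Jund, which is less inducible than the other Jun genes, was called in 1 condition. At 24 h HCM it was at 119.6, 41.1 and 159.9 in WT and 305, 308 and 112 in PKP4-KO (log2 fold change 1.18, SE 0.42, adjusted p = 0.0244). The second WT and the third PKP4-KO library are those that stood apart, and the groups overlapped. That call was lost without WT replicate 2 and PKP4-KO replicates 1 and 2 (0.79 to 0.97, adjusted p = 0.0984 to 0.134), each left out on its own. It was also lost without TMM factors and with offsets for gene length (adjusted p = 0.0512 and 0.0524). Without the 7 libraries Jund was called at 24 h LCM (1.24, adjusted p = 8.86e-07), 24 h HCM (1.11, adjusted p = 1.88e-05) and 72 h LCM (0.85, adjusted p = 1.20e-04).

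Among the Fos genes, Fosl2 was at 72.0, 77.0 and 86.3 CPM in WT and 33.3, 41.4 and 42.1 in PKP4-KO at 24 h LCM (log2 fold change -1.01, SE 0.13, adjusted p = 5.44e-07). In HCM at 24 h it was at 101, 82.4 and 98.9 against 40.3, 36.8 and 36.9, a 2.47-fold difference (log2 fold change -1.31, SE 0.13, adjusted p = 3.91e-09). At 72 h it was at 96.2, 120.0 and 94.5 against 55.5, 73.6 and 68.5 in LCM (log2 fold change -0.65, SE 0.13, adjusted p = 2.07e-04). In HCM it was then at 76.4, 78.0 and 63.1 against 54.0, 42.1 and 39.8 (log2 fold change -0.68, SE 0.13, adjusted p = 1.22e-04). The groups did not overlap in any of the 4 conditions, and every call held with any library left out. Fosl2 has the greatest length in the table among the 10 genes (9680 bases). With offsets for gene length the differences at 72 h were -0.12, adjusted p = 0.488 in LCM and -0.02, adjusted p = 0.939 in HCM, neither called, while those at 24 h remained called.

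Fos itself was lower in PKP4-KO at 24 h HCM, with 19.3, 11.6 and 19.2 CPM in WT and 4.01, 4.89 and 2.29 in PKP4-KO, a 4.41-fold difference (log2 fold change -2.14, SE 0.28, adjusted p = 3.34e-07). In LCM at 72 h it was higher, with 9.42, 10.3 and 11.9 against 27.9, 28.8 and 33.2 (log2 fold change 1.503, SE 0.27, adjusted p = 4.46e-05). In both cases all libraries of the groups were apart. At 24 h LCM it was at 9.30, 9.74 and 9.11 against 4.93, 7.98 and 6.93 (log2 fold change -0.50, adjusted p = 0.146). At 72 h HCM it was at 14.3, 16.1 and 10.6 against 10.9, 9.73 and 7.83 (log2 fold change -0.53, adjusted p = 0.108), and neither difference passed. The latter was called lower without the 7 libraries (-0.67, adjusted p = 0.00176), with length offsets (-0.77, adjusted p = 0.0380) and without TMM factors (-1.33, adjusted p = 0.00244). Fosl1, a Fos gene tied to migration, was at 5.26, 6.69 and 7.18 in WT and 26.0, 31.5 and 18.04 in PKP4-KO at 72 h LCM (log2 fold change 1.98, SE 0.29, adjusted p = 2.57e-06). At 24 h HCM it was at 15.0, 28.6 and 19.3 against 9.64, 10.3 and 16.0 with overlap (log2 fold change -0.81, SE 0.28, adjusted p = 0.0199). This call was lost without WT replicate 2 and PKP4-KO replicates 1 and 2 (-0.71 to -0.52, adjusted p = 0.0812 to 0.157), each on its own. Fosb was called higher at 72 h LCM, from 9, 7 and 8 counts in WT to 13, 23 and 29 in PKP4-KO (log2 fold change 1.91, SE 0.57, adjusted p = 0.00719). In LCM at 24 h it was also called, from 4, 4 and 10 to 12, 24 and 14 counts (log2 fold change 1.46, SE 0.58, adjusted p = 0.0455). The second call was lost without WT replicates 1 and 2 and PKP4-KO replicates 1 and 2 (1.19 to 1.502, adjusted p = 0.0709 to 0.160), each on its own. It was also lost without the 7 libraries (1.48, adjusted p = 0.0601), without TMM factors (1.24, adjusted p = 0.0825) and with a replicate block (1.44, adjusted p = 0.0581).

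Maff had the largest difference of the 10 genes. At 72 h LCM it was at 7.72, 4.71 and 7.45 CPM in WT and 121, 94.3 and 66.0 in PKP4-KO, a 14.2-fold difference (log2 fold change 3.82, SE 0.25, adjusted p = 4.66e-13). In HCM at 72 h it was at 18.2, 21.1 and 32.4 against 111, 96.5 and 80.4 (log2 fold change 2.01, SE 0.23, adjusted p = 3.14e-08). At 24 h LCM it was at 6.03, 7.05 and 8.59 against 9.51, 12.2 and 10.3 (log2 fold change 0.57, SE 0.23, adjusted p = 0.0494). In HCM at 24 h it was at 10.1, 11.6 and 8.10 against 6.38, 5.27 and 6.13, the opposite direction (log2 fold change -0.75, SE 0.23, adjusted p = 0.00985). The 72 h calls held in every setting tried. The call at 24 h LCM was lost without WT replicates 1 and 2 and PKP4-KO replicates 1, 2 and 3 (0.45 to 0.64, adjusted p = 0.0530 to 0.195), each on its own. It was lost as well with a replicate block (0.56, adjusted p = 0.0597), without TMM factors (0.35, adjusted p = 0.193) and with length offsets (0.40, adjusted p = 0.119). The call at 24 h HCM was lost without WT replicate 2 (-0.62, adjusted p = 0.0514).

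Egr1 was higher in PKP4-KO at 24 h, with 3.01, 3.498 and 3.54 CPM in WT and 6.48, 8.23 and 5.34 in PKP4-KO in LCM (log2 fold change 0.995, SE 0.24, adjusted p = 0.00128). In HCM it was at 3.96, 3.02 and 3.31 against 6.06, 7.07 and 9.01 (log2 fold change 1.09, SE 0.24, adjusted p = 3.89e-04). In high calcium at 72 h it was lower, with 24.5, 19.6 and 21.6 in WT and 7.24, 4.94 and 3.63 in PKP4-KO, a 4.16-fold difference (log2 fold change -2.06, SE 0.24, adjusted p = 6.73e-08). In LCM at 72 h the groups overlapped at 4.96 to 5.64 CPM. Myc was called in PKP4-KO at 72 h HCM, where it was at 171, 178 and 142 in WT and 86.8, 80.3 and 82.5 in PKP4-KO (log2 fold change -0.98, SE 0.14, adjusted p = 1.19e-06). In the other 3 conditions its log2 fold change was between -0.03 and 0.10, and its levels were 142 to 234 CPM in both genotypes. Without the 7 libraries it was also called at 24 h LCM (0.27, adjusted p = 0.0186). The Egr1 calls and the Myc call at 72 h HCM held with any library left out, without TMM factors and with length offsets.

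**Figure D3:**
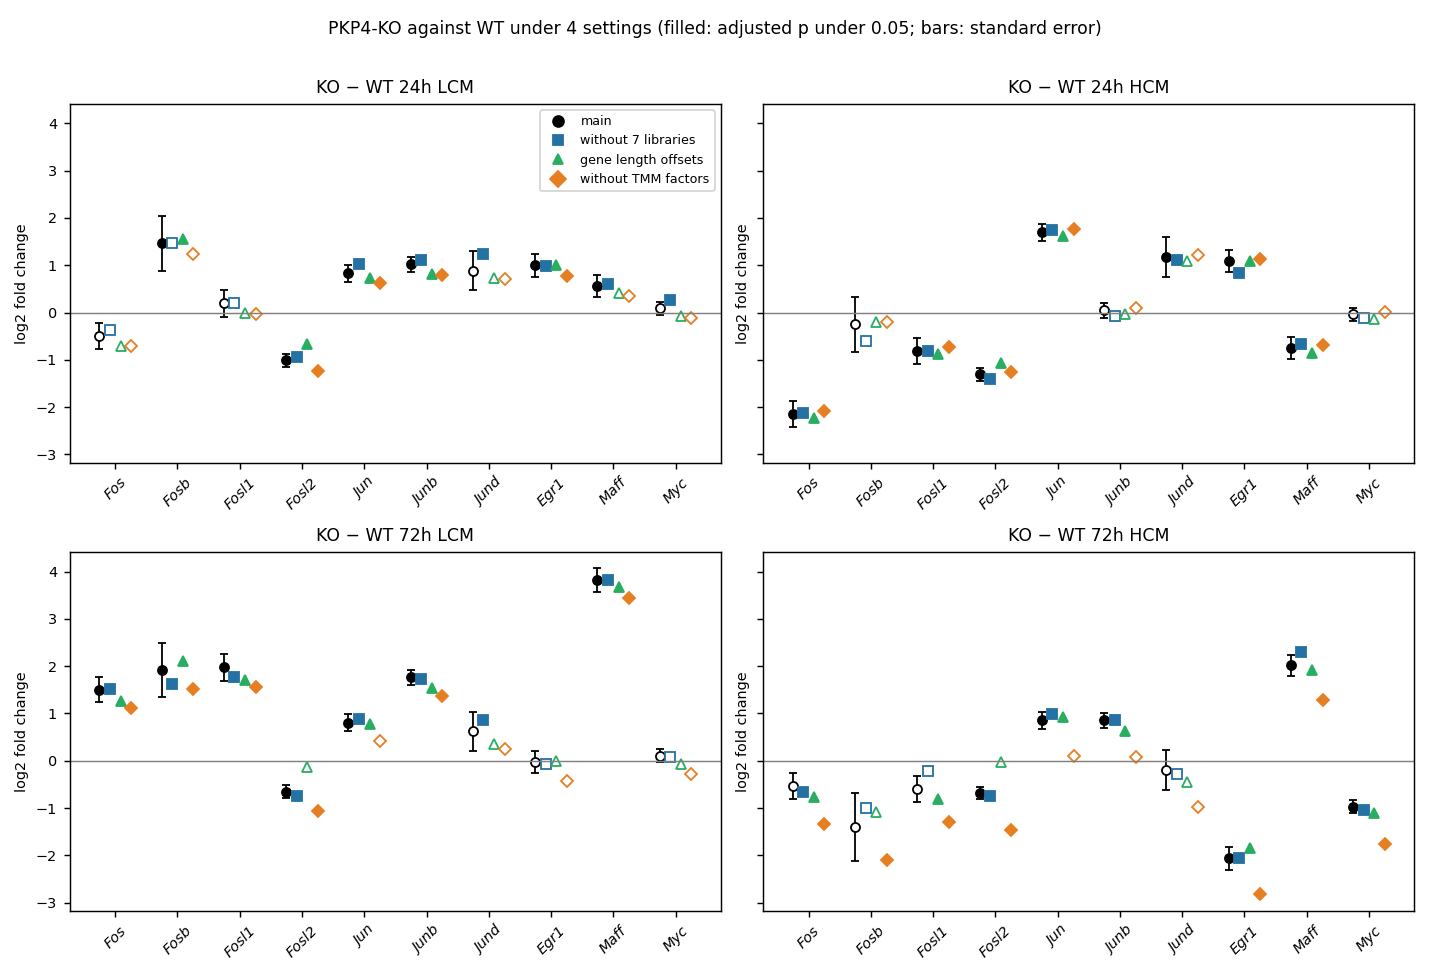
Log2 fold change of PKP4-KO against WT for the 10 genes in the 4 culture conditions. Circles are the values of the text with standard errors, and other symbols the values without the 7 libraries that stood apart (squares), with offsets for gene length (triangles) and without TMM factors (diamonds). Filled symbols have an adjusted p-value under 0.05. Jun stays above 0 in all settings but is open without TMM factors at 72 h, and Fosl2 at 72 h lies near 0 with length offsets.

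**Figure D4:**
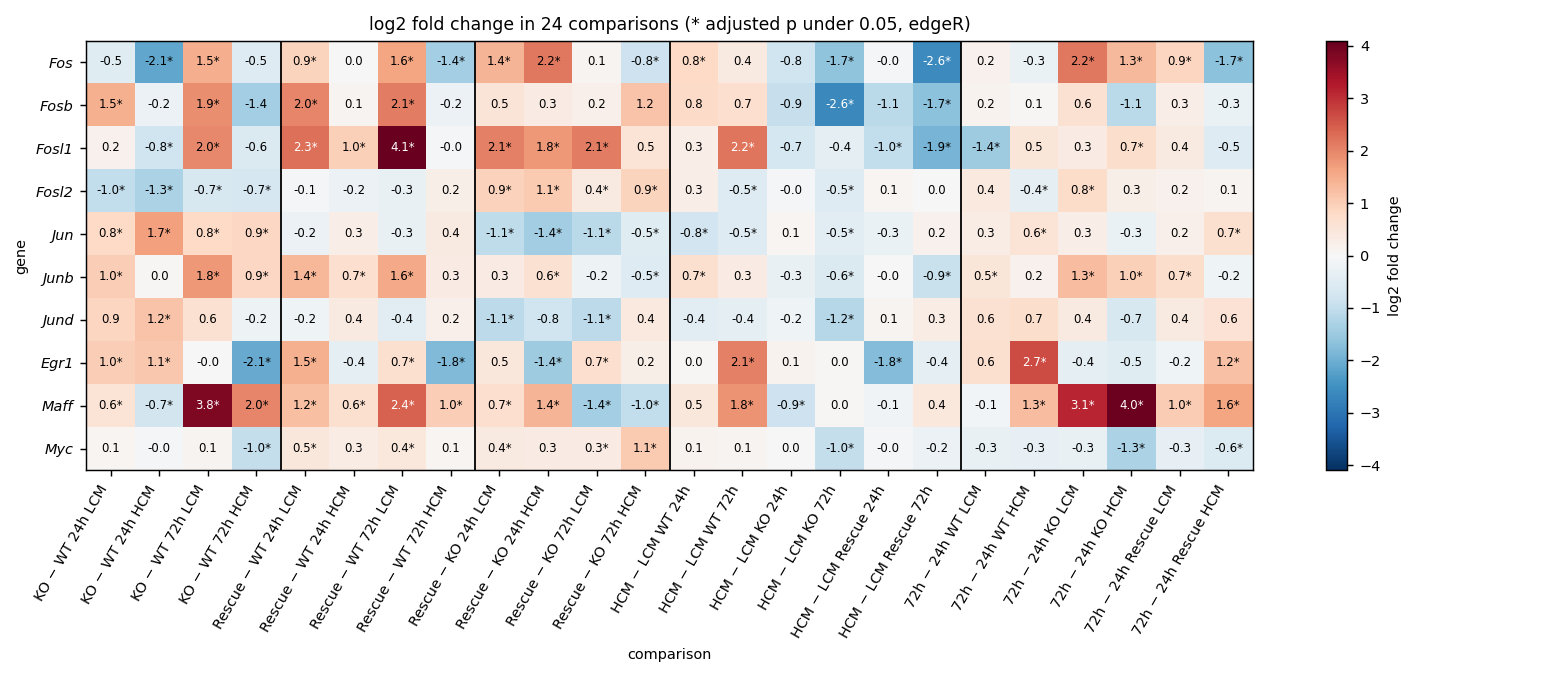
Log2 fold change of the 10 genes (rows) in 24 comparisons (columns), from edgeR, with asterisks for adjusted p-values under 0.05. Red is higher and blue lower in the first group named. Jun is called higher in all 4 comparisons of PKP4-KO with WT and in none of Rescue with WT. In Rescue against PKP4-KO at 72 h HCM, Fos, Jun, Junb and Maff take the opposite sign without TMM factors, as do Fosl1 and Junb at 72 h against 24 h in PKP4-KO in HCM.

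Rescue cells address which of these differences return when PKP4 is expressed again. Compared with PKP4-KO, 5 of the 10 genes were higher and 2 lower in Rescue at 24 h LCM (18.2% and 15.5% of all genes, 33.7% together). The counts were 5 and 2 at 24 h HCM (21.7% and 19.0%, 40.8% together) and 4 and 3 at 72 h LCM (23.3% and 18.3%, 41.6% together). At 72 h HCM they were 2 and 4 (37.2% and 29.5%, 66.7% together), but 8 and 0 without TMM factors. Compared with WT, 7 were higher and 0 lower at 24 h LCM (13.5% and 11.4% of all genes, 24.8% together) and 3 and 0 at 24 h HCM (11.8% and 11.4%, 23.2% together). At 72 h, 7 were higher and 0 lower in LCM (17.9% and 14.6%, 32.4% together) and 1 and 2 in HCM (19.5% and 16.7%, 36.2% together; 4 and 2 without TMM factors). Libraries did not overlap between Rescue and PKP4-KO for 41.6%, 51.2%, 42.5% and 75.5% of all genes, and between Rescue and WT for 40.7%, 35.1%, 43.5% and 52.9%. These comparisons share the PKP4-KO libraries, or the WT libraries, with those above, so that a difference from PKP4-KO in the direction of WT is partly built in. Without TMM factors the median of all genes in Rescue against PKP4-KO moved by 0.10, 0.06, 0.35 and 1.17 in the same order.

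Neither Jun nor Fosl2 was called between Rescue and WT in any condition with TMM factors and all libraries. Jun was at 13.2, 14.2 and 13.2 CPM at 24 h LCM, 11.8, 12.5 and 9.14 in HCM at the same time, 16.0, 14.7 and 16.2 at 72 h LCM and 18.4, 18.5 and 15.5 at 72 h HCM. It was lower than in PKP4-KO in the first 3 conditions, with log2 fold changes of -1.05, adjusted p = 2.04e-05, -1.43, adjusted p = 1.34e-07, and -1.12, adjusted p = 7.23e-06. In HCM at 72 h the difference was -0.49, adjusted p = 0.0154, but it took the opposite sign without TMM factors (0.68, adjusted p = 0.0123). It was also lost without PKP4-KO replicate 1 and Rescue replicate 3 (-0.44 to -0.41, adjusted p = 0.0534 to 0.0693). Against WT, none of the 4 differences of Jun passed the test, with log2 fold changes of -0.31 to 0.36, which does not show that the levels were equal. The groups did not overlap in LCM at either time, and at 72 h HCM Jun was called higher than in WT without the 7 libraries (0.48, adjusted p = 0.0133) and without TMM factors (0.79, adjusted p = 0.0109). Fosl2 was at 79.5, 78.1 and 67.7 CPM at 24 h LCM and 81.1, 81.7 and 77.7 at 24 h HCM. Both were above PKP4-KO (log2 fold change 0.95, SE 0.13, adjusted p = 1.75e-06, and log2 fold change 1.08, SE 0.13, adjusted p = 1.35e-07). At 72 h it was at 91.4, 82.2 and 79.5 in LCM and 86.2, 89.8 and 82.3 in HCM. It was called higher than in PKP4-KO (0.36, adjusted p = 0.0303, and 0.93, adjusted p = 1.19e-06), whereas with length offsets both differences took the opposite sign (-0.08 and -0.14) and did not pass. The call in LCM was also lost without PKP4-KO replicate 1 and Rescue replicate 1 (0.25 to 0.30, adjusted p = 0.127 to 0.173). Its differences from WT lay between -0.30 and 0.25 and did not pass the test, but the libraries overlapped only at 24 h LCM. They were below WT at 24 h HCM and 72 h LCM and above it at 72 h HCM, where the difference was called without TMM factors (0.64, adjusted p = 0.0187).

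Fosl1, Maff and Junb were above WT in Rescue in most conditions. Fosl1 was at 78.0, 93.1 and 77.1 CPM at 24 h LCM and 76.6, 158 and 86.7 at 72 h LCM, where the highest library is one that stood apart. Against WT this was 4.76-fold (log2 fold change 2.25, SE 0.28, adjusted p = 6.87e-07) and 16.8-fold (log2 fold change 4.07, SE 0.31, adjusted p = 3.09e-11), and without the 7 libraries the second was 3.66, adjusted p = 5.60e-14. It was also above PKP4-KO in both (2.06, adjusted p = 1.22e-06, and 2.09, adjusted p = 7.59e-07). In HCM it was at 42.5, 47.3 and 33.6 at 24 h, above PKP4-KO (1.79, adjusted p = 7.62e-06) and WT (0.98, adjusted p = 0.00996). The call against WT was lost without WT replicate 1 (0.78, adjusted p = 0.0704). In high calcium at 72 h it was at 29.7, 30.1 and 25.9 and passed in neither comparison. Its difference from PKP4-KO there (0.55, adjusted p = 0.0846) was called without the 7 libraries (0.55, adjusted p = 0.00622), with length offsets (1.03, adjusted p = 4.95e-04) and without TMM factors (1.72, adjusted p = 1.02e-07).

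Maff in Rescue was at 16.2, 16.3 and 19.0 CPM at 24 h LCM, 18.1, 17.2 and 11.52 in HCM at the same time, 32.1, 35.7 and 38.5 at 72 h LCM and 51.3, 50.7 and 42.4 at 72 h HCM. At 72 h it lay between the other genotypes, apart from both. It was lower than in PKP4-KO in LCM (log2 fold change -1.40, SE 0.22, adjusted p = 8.45e-06). It was higher than in WT in LCM (log2 fold change 2.42, SE 0.23, adjusted p = 2.78e-09) and HCM (log2 fold change 1.02, SE 0.22, adjusted p = 7.49e-04). Its difference from PKP4-KO at 72 h HCM was -0.996, adjusted p = 2.96e-04, but 0.18, adjusted p = 0.396 without TMM factors. At 24 h it had the highest mean of the 3 genotypes. It was then higher than in PKP4-KO in HCM (log2 fold change 1.40, SE 0.23, adjusted p = 1.40e-05) and than in WT in LCM (log2 fold change 1.25, SE 0.23, adjusted p = 1.35e-04). Its call against PKP4-KO in LCM (0.68, adjusted p = 0.0189) was lost without PKP4-KO replicates 1 and 3 and Rescue replicate 3 (0.60 to 0.66, adjusted p = 0.0547 to 0.0752), each on its own, and without the 7 libraries (0.54, adjusted p = 0.101). That against WT in HCM (0.65, adjusted p = 0.0362) was lost without WT replicates 1 and 3 and Rescue replicates 1 and 2 (0.52 to 0.67, adjusted p = 0.0741 to 0.162).

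Junb was at 248, 276 and 202 CPM at 24 h LCM, 260.1, 293 and 164 in HCM at the same time, 359.9, 429.9 and 402 at 72 h LCM and 218, 217 and 200.2 at 72 h HCM. It was above WT in the first 3 (1.36, adjusted p = 1.65e-07, 0.68, adjusted p = 0.00174, and 1.57, adjusted p = 6.96e-09), with 1 library at 24 h HCM inside the WT range. It was above PKP4-KO at 24 h HCM (0.63, adjusted p = 0.00168). At 72 h HCM its difference from PKP4-KO was -0.53, adjusted p = 0.00401 but 0.65, adjusted p = 0.00433 without TMM factors and -0.18, adjusted p = 0.322 with length offsets. Jund was called lower than in PKP4-KO at 24 h LCM (-1.08, adjusted p = 0.0472) and 72 h LCM (-1.06, adjusted p = 0.0433), with 156, 160.2 and 67.8 and 170.5, 122 and 206 CPM. At 24 h the call was lost without PKP4-KO replicates 2 and 3 and Rescue replicates 1, 2 and 3 (-1.27 to -0.72, adjusted p = 0.0516 to 0.250), each on its own. At 72 h it was lost without PKP4-KO replicates 1 and 3 and Rescue replicates 1 and 2 (-1.08 to -0.87, adjusted p = 0.0926 to 0.143). Without the 7 libraries the differences were -1.14, adjusted p = 1.94e-05, and -1.12, adjusted p = 1.69e-05. Without TMM factors (adjusted p = 0.136 and 0.252), with length offsets (adjusted p = 0.0838 and 0.168) and with a replicate block (adjusted p = 0.0561 and 0.0539) they did not pass.

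Fos in Rescue was at 19.7, 22.8 and 9.95 CPM at 24 h LCM and 18.4, 19.2 and 13.4 at 24 h HCM. Both were above PKP4-KO (log2 fold change 1.40, SE 0.27, adjusted p = 1.60e-04, and log2 fold change 2.17, SE 0.28, adjusted p = 3.06e-07). At 24 h HCM it overlapped with WT. In LCM at 24 h it was above WT (0.90, adjusted p = 0.0131), a call lost without Rescue replicates 1 and 2 (0.66 to 0.81, adjusted p = 0.0522 to 0.107) and without TMM factors (0.79, adjusted p = 0.118). At 72 h LCM it was at 35.9, 23.3 and 37.9, like PKP4-KO above WT (log2 fold change 1.62, SE 0.27, adjusted p = 2.26e-05). In HCM at 72 h it was at 5.51, 5.80 and 4.47, below WT (log2 fold change -1.38, SE 0.27, adjusted p = 2.71e-04). Its difference from PKP4-KO was -0.85, adjusted p = 0.00947 but 0.33, adjusted p = 0.407 without TMM factors and -0.50, adjusted p = 0.169 with length offsets. Fosb was called higher than in WT at 72 h LCM, with 44, 28 and 21 counts (log2 fold change 2.11, SE 0.56, adjusted p = 0.00433). At 24 h LCM it was also called, with 27, 38 and 17 counts (log2 fold change 1.99, SE 0.58, adjusted p = 0.0109), and lost without WT replicates 1 and 2 (1.77 to 1.82, adjusted p = 0.0508 to 0.0575).

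Egr1 was below WT in Rescue as in PKP4-KO at 72 h HCM, where it was at 7.64, 6.19 and 4.90 CPM, 3.51-fold below WT (log2 fold change -1.81, SE 0.23, adjusted p = 7.68e-07). In HCM at 24 h it was at 2.94, 2.70 and 2.43, below PKP4-KO (log2 fold change -1.45, SE 0.24, adjusted p = 1.41e-05). In LCM at 24 h it was at 11.2, 11.1 and 5.43, above WT (log2 fold change 1.47, SE 0.24, adjusted p = 2.62e-05), with the library that stood apart lowest. In LCM at 72 h it was at 8.39, 8.61 and 7.82, above WT (0.66, adjusted p = 0.0279) and PKP4-KO (0.69, adjusted p = 0.0183). The first call was lost without WT replicates 1 and 2 and Rescue replicates 1 and 2 (0.61 to 0.65, adjusted p = 0.0606 to 0.0856), each on its own, and without TMM factors (0.62, adjusted p = 0.0913). The second was lost without PKP4-KO replicate 1 (0.67, adjusted p = 0.0510). Myc at 72 h HCM was at 176, 179 and 168, apart from PKP4-KO (log2 fold change 1.07, SE 0.14, adjusted p = 2.10e-07) and overlapping with WT. In LCM it was called higher in Rescue than in WT (0.47 at 24 h and 0.44 at 72 h on the log2 scale, adjusted p = 0.0113 and 0.0122) and than in PKP4-KO (0.37 and 0.34, adjusted p = 0.0331 and 0.0435). Of these small differences, that from WT at 24 h was lost without WT replicate 1 and Rescue replicate 1 (0.42, adjusted p = 0.0501 to 0.0578). The difference from PKP4-KO at 24 h was lost without PKP4-KO replicate 1 and Rescue replicates 1 and 2 (0.17 to 0.33, adjusted p = 0.110 to 0.299), and that at 72 h without PKP4-KO replicates 1, 2 and 3 and Rescue replicates 1 and 3 (0.31 to 0.35, adjusted p = 0.0759 to 0.117), each on its own. Without TMM factors, both differences from WT (0.34, adjusted p = 0.307, and 0.42, adjusted p = 0.178) and that from PKP4-KO at 24 h (0.45, adjusted p = 0.138) did not pass. That from WT at 24 h did not pass either with length offsets (0.39, adjusted p = 0.0617).

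With added calcium, more of the 10 genes were called at 72 h than at 24 h in each genotype. The share of all genes called rose from 24 h to 72 h in each genotype as well, so that such a rise is not particular to the 10 genes. In WT, 2 genes were higher and 1 lower in HCM at 24 h (7.69% and 6.48% of all genes) and 3 higher and 2 lower at 72 h (10.6% and 10.8%). In PKP4-KO the counts were 0 and 1 at 24 h (1.44% and 1.40%; 0 and 3 without the 7 libraries) and 0 and 7 at 72 h (12.9% and 19.7%). In Rescue they were 0 and 2 at 24 h (6% and 5.96%) and 0 and 4 at 72 h (13% and 12%). In WT at 72 h, Egr1 was at 4.96, 5.11 and 5.64 CPM in LCM and 24.5, 19.6 and 21.6 in HCM (log2 fold change 2.06, SE 0.23, adjusted p = 1.39e-07). Fosl1 was at 5.26, 6.69 and 7.18 and 23.3, 22.5 and 43.2 (log2 fold change 2.21, SE 0.29, adjusted p = 1.48e-06). Maff was at 7.72, 4.71 and 7.45 and 18.2, 21.1 and 32.4 (log2 fold change 1.85, SE 0.23, adjusted p = 7.11e-07). None of these 3 was called higher in HCM in PKP4-KO or Rescue at 72 h. Maff in Rescue was at 32.1, 35.7 and 38.5 CPM in LCM and 51.3, 50.7 and 42.4 in HCM (0.44, adjusted p = 0.143). Its groups did not overlap, and the difference passed without TMM factors (0.58, adjusted p = 0.0402). Fosl1 fell in Rescue at 72 h (log2 fold change -1.91, SE 0.28, adjusted p = 8.51e-06). All 3 calls in WT held in every setting tried.

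Fos was lower in HCM at 72 h in PKP4-KO and Rescue. It differed from LCM in PKP4-KO (log2 fold change -1.66, SE 0.28, adjusted p = 3.79e-05) and in Rescue (log2 fold change -2.62, SE 0.28, adjusted p = 5.42e-08). In Rescue it went from 35.9, 23.3 and 37.9 to 5.51, 5.80 and 4.47 CPM, while in WT the groups overlapped (0.38, adjusted p = 0.333, and 0.51, adjusted p = 0.0225 without the 7 libraries). At 24 h the difference was -0.81, adjusted p = 0.127 in PKP4-KO, -0.74, adjusted p = 0.0292 without the 7 libraries, and in Rescue it was -0.05, adjusted p = 0.949. Junb was also lower in HCM at 72 h in PKP4-KO (-0.58, adjusted p = 0.00508) and Rescue (-0.91, adjusted p = 7.26e-05). It was higher in WT at 24 h (0.67, adjusted p = 0.00313, and 0.39, adjusted p = 0.187 without TMM factors). Myc fell in PKP4-KO at 72 h, from 164, 166 and 160.5 to 86.8, 80.3 and 82.5 CPM (log2 fold change -0.97, SE 0.14, adjusted p = 3.91e-06). Fosb fell as well, from 13, 23 and 29 to 3, 2 and 0 counts (-2.64, adjusted p = 0.00396). Egr1 fell in Rescue at 24 h, from 11.2, 11.1 and 5.43 to 2.94, 2.70 and 2.43 CPM (log2 fold change -1.78, SE 0.24, adjusted p = 4.34e-06). Jun fell in WT at 24 h, from 15.4, 15.6 and 16.4 to 8.70, 8.33 and 10.7 (log2 fold change -0.77, SE 0.18, adjusted p = 0.00264). Fosl2 was called lower at 72 h in WT (-0.51, adjusted p = 0.00519) and PKP4-KO (-0.54, adjusted p = 0.00256). Neither passed with length offsets (-0.28, adjusted p = 0.165, and -0.17, adjusted p = 0.383). In PKP4-KO, leaving out TMM factors moved the median of all genes by -0.69 at 72 h.

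The other calls of the calcium comparison were lost in some of the fits that left out a single library. Fos was called in WT at 24 h (0.83, adjusted p = 0.0339) and lost without WT LCM replicates 1, 2 and 3 and WT HCM replicates 1 and 3 (0.72 to 0.86, adjusted p = 0.0764 to 0.122), each on its own. Jun was called at 72 h in WT (-0.52, adjusted p = 0.0338) and lost without WT LCM replicates 1, 2 and 3 and WT HCM replicates 1 and 2 (-0.54 to -0.45, adjusted p = 0.0543 to 0.116). In PKP4-KO at 72 h it was called (-0.46, adjusted p = 0.0419) and lost without PKP4-KO LCM replicate 1 and PKP4-KO HCM replicates 1, 2 and 3 (-0.51 to -0.29, adjusted p = 0.0583 to 0.252). Jund in PKP4-KO at 72 h (-1.18, adjusted p = 0.0324) was lost without PKP4-KO LCM replicates 1 and 3 and PKP4-KO HCM replicates 1, 2 and 3 (-1.23 to -0.99, adjusted p = 0.0660 to 0.114), but was -1.41, adjusted p = 1.37e-07 without the 7 libraries. Maff in PKP4-KO at 24 h (-0.85, adjusted p = 0.0404) was lost without PKP4-KO LCM replicates 2 and 3 and PKP4-KO HCM replicates 1, 2 and 3 (-0.91 to -0.75, adjusted p = 0.0754 to 0.179). Fosl1 in Rescue at 24 h (-1.01, adjusted p = 0.0128) was lost without Rescue LCM replicate 2 and Rescue HCM replicate 3 (-0.91 to -0.88, adjusted p = 0.0582 to 0.0767). Fosb in Rescue at 72 h (-1.68, adjusted p = 0.0250) was lost without Rescue LCM replicate 2 and Rescue HCM replicates 2 and 3 (-1.65 to -1.43, adjusted p = 0.0707 to 0.113), each on its own, and without the 7 libraries (-1.46, adjusted p = 0.0617). Fosl2 in WT at 72 h was lost without WT LCM replicate 2 (-0.39, adjusted p = 0.0585).

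Between 24 h and 72 h the clearest change was the rise of Maff. In WT, 1 gene was higher and 1 lower at 72 h in LCM (5.29% and 4.66% of all genes; 4 and 2 without the 7 libraries) and 3 higher and 1 lower in HCM (9.16% and 8.69%). In PKP4-KO the counts were 4 and 0 in LCM (12.4% and 13.7%) and 4 and 1 in HCM (24.3% and 31.4%), where without TMM factors they were 1 and 6. In Rescue they were 3 and 0 in LCM (6.84% and 2.96%) and 3 and 2 in HCM (13.6% and 10.7%). Maff rose in PKP4-KO from 9.51, 12.2 and 10.3 to 121, 94.3 and 66.0 CPM in LCM, 8.75-fold (log2 fold change 3.13, SE 0.24, adjusted p = 5.18e-11). In HCM it rose from 6.38, 5.27 and 6.13 to 111, 96.5 and 80.4, 16.2-fold (log2 fold change 4.02, SE 0.25, adjusted p = 2.09e-13). It rose in HCM in WT (log2 fold change 1.26, SE 0.23, adjusted p = 2.31e-04) and Rescue (log2 fold change 1.63, SE 0.23, adjusted p = 3.36e-06) too. In LCM it rose in Rescue (1.04, adjusted p = 0.00151), while in WT its libraries overlapped. Each of these 5 calls held in every setting tried.

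Junb rose with time in LCM in all 3 genotypes, by 0.51 in WT (adjusted p = 0.0322), 1.26 in PKP4-KO (adjusted p = 4.87e-07) and 0.71 in Rescue (adjusted p = 0.00193) on the log2 scale. Without TMM factors the rises in WT and Rescue did not pass (0.30, adjusted p = 0.391, and 0.58, adjusted p = 0.0724). That in WT was also lost without WT 24 h replicates 1 and 2 and WT 72 h replicates 1, 2 and 3 (0.45 to 0.52, adjusted p = 0.0661 to 0.150). Its difference in PKP4-KO in HCM was 0.98, adjusted p = 7.10e-06 but -0.08, adjusted p = 0.716 without TMM factors. Fos rose in PKP4-KO in LCM, from 4.93, 7.98 and 6.93 to 27.9, 28.8 and 33.2 CPM (log2 fold change 2.17, SE 0.28, adjusted p = 6.68e-07). In HCM it rose as well (1.33, adjusted p = 3.10e-04, though 0.23, adjusted p = 0.582 without TMM factors). In Rescue in HCM it fell from 18.4, 19.2 and 13.4 to 5.51, 5.80 and 4.47 (log2 fold change -1.69, SE 0.27, adjusted p = 3.22e-05). Egr1 rose in HCM in WT from 3.96, 3.02 and 3.31 to 24.5, 19.6 and 21.6 CPM, 6.36-fold (log2 fold change 2.67, SE 0.24, adjusted p = 5.94e-09), and in Rescue (1.21, adjusted p = 3.56e-04). Fosl1 fell in WT in LCM, from 16.2, 20.2 and 15.7 to 5.26, 6.69 and 7.18 CPM (log2 fold change -1.44, SE 0.29, adjusted p = 0.00113). Myc fell in HCM in PKP4-KO, from 202, 218 and 192 to 86.8, 80.3 and 82.5 CPM (log2 fold change -1.29, SE 0.14, adjusted p = 1.05e-08), and in Rescue (-0.55, adjusted p = 0.00309, and -0.51, adjusted p = 0.114 without TMM factors). Fosl2 rose in PKP4-KO in LCM (0.76, adjusted p = 7.54e-05, and 0.37, adjusted p = 0.188 without TMM factors).

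The remaining calls were likewise lost in some of the fits that left out a single library. Fos in Rescue in LCM (0.89, adjusted p = 0.0273) was lost without Rescue 24 h replicate 3 and Rescue 72 h replicates 1 and 3 (0.61 to 0.80, adjusted p = 0.0918 to 0.181). Fosl1 in PKP4-KO in HCM (0.71, adjusted p = 0.0355) took the opposite sign without TMM factors (-0.34, adjusted p = 0.172) and was lost without PKP4-KO 24 h replicates 1 and 2 and PKP4-KO 72 h replicate 1 (0.49 to 0.61, adjusted p = 0.123 to 0.193). Fosl2 in WT in HCM (-0.37, adjusted p = 0.0480) was lost without WT 24 h replicates 1 and 3 and WT 72 h replicates 1 and 3 (-0.41 to -0.28, adjusted p = 0.0667 to 0.225). Jun in HCM was called in WT (0.56, adjusted p = 0.0294) and Rescue (0.65, adjusted p = 0.00642). It was lost without WT 24 h replicates 1 and 2 and WT 72 h replicate 3 (0.45 to 0.51, adjusted p = 0.0852 to 0.141) in the first and Rescue 24 h replicate 3 (0.53, adjusted p = 0.0535) in the second. In WT it was also lost without the 7 libraries (0.37, adjusted p = 0.112). In PKP4-KO in HCM the median of all genes moved by -1.06 without TMM factors.

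Whether the responses differed between genotypes was tested by interaction terms. The calcium effect at 72 h differed between PKP4-KO and WT for 7 of the 10 genes (5.74% of all genes called), with more negative effects in PKP4-KO for each of them. Between Rescue and WT it differed for 7 as well (14.6%), with 6 lower and 1 higher. At 24 h the counts were 4 (4.02%) and 1 (0.0662%), but 0 and 0 without TMM factors. The time effect differed between PKP4-KO and WT for 4 genes in LCM (5.26%) and 7 in HCM (26.6%), and between Rescue and WT for 2 in each medium (3.91% in LCM and 10.5% in HCM). In HCM the count for Rescue was 0 without TMM factors and 4 without the 7 libraries, and that for PKP4-KO was 5 without TMM factors. The shares of 7 in 10 at 72 h lie above the background, but the 2 comparisons share the WT libraries, in which Egr1, Fosl1 and Maff were high at 72 h HCM. The largest term by size was that of Fosl1 for calcium at 72 h in Rescue (-4.12, SE 0.40, adjusted p = 4.36e-08). It was followed by Fosb for calcium at 72 h in PKP4-KO (-3.32, SE 0.91, adjusted p = 0.0256, and -2.62, adjusted p = 0.0652 without the 7 libraries) and Maff for time in LCM in PKP4-KO (3.26, SE 0.33, adjusted p = 1.41e-07).

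Genes around these factors were counted by list, with no test of a list. Over the 4 conditions of PKP4-KO against WT, Myc target genes were called 29 times higher and 0 times lower in 48 tests, and the AP-1 target genes of keratinocytes 9 times higher and 29 times lower in 48. Myc partners and antagonists were called 2 times higher and 26 times lower in 44 tests. Kinases and SRF, TCF and CREB factors upstream were called 11 times higher and 25 times lower in 80. With length offsets these upstream genes did not lean lower. They were then 5 higher and 4 lower at 24 h LCM, and 6 and 4 at 24 h HCM. At 72 h they were 5 and 5 in LCM and 5 and 6 in HCM. The others were mixed: 10 higher and 10 lower in 32 tests of other AP-1 bZIP genes, 29 and 35 in 104 tests of other immediate-early genes, and 8 and 6 in 28 tests of ERK feedback inhibitors. Of all genes, 19.7% to 21.9% were called higher and 20.6% to 29.9% lower in a condition. The tests of a gene in the 4 conditions are not independent.

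Of the 12 Myc target genes, 10 were higher in PKP4-KO in LCM and 7 in HCM at 24 h. At 72 h, 6 were higher in LCM and 6 in HCM, where without TMM factors 2 were higher and 5 lower. The list's median log2 fold change was 0.93, 0.76, 0.62 and 0.54, while Myc itself was called in 1 condition, lower. Ldha (lactate dehydrogenase A) was higher by 1.104, 0.99, 2.14 and 1.77 on the log2 scale, in the same order of conditions, Srm (spermidine synthase) by 1.35, 1.35, 1.05 and 1.05, and Odc1 (ornithine decarboxylase) by 1.60, 1.24, 1.04 and 0.87. Among the Myc partners and antagonists, Mxd1, which competes with Myc for Max, was lower in all 4 conditions, with log2 fold changes of -1.89, -3.70, -0.83 and -1.39, and so were Mxd4 (log2 fold changes of -1.49 to -0.83), Mycl (-2.94 to -0.82) and Mlxip (-1.78 to -0.73). The largest adjusted p-value of these genes in edgeR was 0.00554.

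Of 12 tested AP-1 target genes, 8 were lower and 2 higher at 24 h LCM, 9 and 2 at 24 h HCM, 5 and 4 in LCM at 72 h, and 7 and 1 at 72 h HCM. Ivl (involucrin, a precursor of the cornified envelope) fell by 1.32, 3.63, 0.91 and 2.83 on the log2 scale, and the urokinase receptor gene Plaur by 0.98, 1.99, 0.54 and 2.32. Hbegf (an EGF receptor ligand) and Timp1 (an inhibitor of matrix proteases) were also lower in all 4 conditions, with log2 fold changes of -1.91 to -0.54. Other genes of the list were called higher. Mmp3 (by 4.18, 2.23 and 3.91) and Ccnd1 were higher in all conditions but 72 h HCM. Tgm1 was lower at 24 h (-1.66 in LCM and -3.59 in HCM) but higher at 72 h (0.78 and 2.35). Sprr1a was higher at 72 h LCM (1.17). In Rescue against PKP4-KO, 9, 8, 9 and 5 of the 12 were higher, and 1, 2, 0 and 3 lower. Of all genes, 18.2%, 21.7%, 23.3% and 37.2% were called higher in that comparison and 15.5%, 19.0%, 18.3% and 29.5% lower. The counts of AP-1 target genes at 72 h HCM lie near this background. Myc target genes were lower there in 4, 5, 4 and 6 cases and higher in 0, 0, 3 and 2, where at 72 h HCM 10 were higher without TMM factors.

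Among other AP-1 bZIP genes, Atf3, a stress-induced factor that pairs with Jun proteins, was higher in PKP4-KO in all 4 conditions (by 1.43, 1.22, 2.54 and 3.28) and Mafk, a small Maf gene like Maff, was lower (log2 fold changes of -1.22 to -0.57). Among other immediate-early genes, Ccn2, a target of YAP and SRF, had 339 to 3093 counts in WT, 1 to 42 in PKP4-KO and 66 to 550 in Rescue libraries, a log2 fold change of -7.03 to -5.57 in PKP4-KO against WT. Plk2, a kinase of the Polo family, was also lower (-1.19 to -0.75). Rps6ka3, a kinase activated by ERK, Map2k4, a kinase upstream of JNK, and Elk3, a TCF partner of SRF, were lower in all 4 conditions, with log2 fold changes of -1.37 to -0.42. In high calcium at 72 h the kinases and upstream factors were called 1 time higher and 10 times lower, but 5 higher and 6 lower with length offsets and 0 higher and 19 lower without TMM factors. Among the ERK feedback inhibitors, Dusp6, the ERK phosphatase that ERK signalling induces, was higher by 2.04, 1.29, 4.38 and 0.51. At 72 h HCM it was the only gene of that list called higher (adjusted p = 0.0467 in edgeR), and 0 were higher without TMM factors. Dusp4 (-2.69), Spred1 (-1.95) and Spred2 (-1.55) were called lower in that condition. Batf, Batf2, Batf3, Egr4, Nr4a3, Npas4, Mmp9, Mmp10, Mmp13 and Mlxipl did not pass the filter on low counts.

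**Figure D5:**
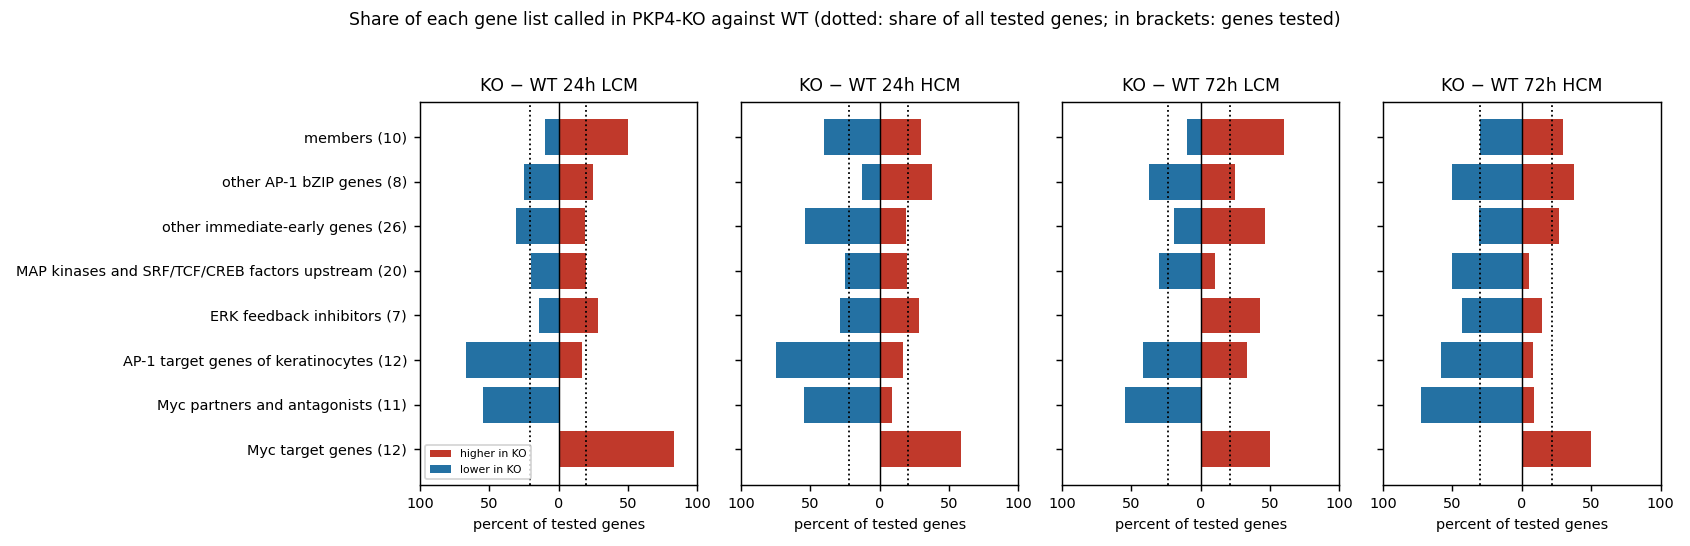
Share of the tested genes of each list called higher (red, to the right) or lower (blue, to the left) in PKP4-KO against WT in the 4 culture conditions, in percent, with the number of genes tested in brackets. Dotted lines are the shares over all 15114 genes. Myc target genes lie on the higher side in all 4 conditions (at 72 h HCM 5 of 12 are called lower without TMM factors), AP-1 target genes mostly on the lower.

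Some genes of these lists changed with culture in all 3 genotypes. At 72 h against 24 h in LCM, Tgm1 (transglutaminase 1, which cross-links the cornified envelope) rose by 1.18 (WT), 3.61 (PKP4-KO) and 1.91 (Rescue) on the log2 scale, and Dusp1, a MAP kinase phosphatase, by 1.095, 2.57 and 0.94. In HCM, Sprr1a, another envelope precursor, rose by 2.44, 5.66 and 1.96, and Mapk3, the gene of ERK1, by 1.08, 2.201 and 0.99. Nr4a1 fell by 0.96, 1.11 and 0.75 in LCM. With calcium at 24 h, Arc rose by 2.76, 0.67 and 1.57, and Dusp6 fell by 0.71, 1.46 and 1.20. The largest adjusted p-value of these 7 differences in edgeR was 0.0426.

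The genes most like each member over the 12 group means were described by Pearson's r on the scale of log2(CPM + 1), among 7689 protein-coding genes averaging 10 CPM or more. For Fosl2 this was Dusp11 (r = 0.98), and for Jun they were Hmgb2 (0.95) and Mtg1 (0.94). Maff was closest to Aldoa (0.96), Aldoc (0.94) and Ndrg1 (0.94), and Junb to Ier3 (0.94). Fosl1 was closest to Phlda1 (0.93) and Il24 (0.92), Myc to Fam3c (0.94) and Efcab14 (0.94), and Jund to Mreg (0.90). The highest values were lower for Egr1 (0.89 with Mcu), Fos (0.88 with Trappc9) and Fosb (0.85 with Ppp1r18). Between members, r was highest for Jun with Jund (0.85), Junb with Maff (0.82) and Fosb with Fosl1 (0.72). All genes share the same 12 groups and libraries, so that these values describe likeness over few points.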

How the data were processed

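Poly(A) RNA of 36 mouse keratinocyte libraries was sequenced with strand-specific, paired-end reads. The authors aligned reads with HISAT2 2.1.0 to the mm39 genome joined by the sequence of GFP-PKP4, handled alignments with SAMtools 1.10 and made the deposited counts per gene with featureCounts 2.0.0. The counts are whole numbers with no normalization. The strand setting of the counting is not given in the sources used here, so reads of overlapping antisense genes may be included.

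Counts were tested with edgeR 4.0.16 (R 4.3.3, limma 3.58.1): TMM factors, filterByExpr, and glmQLFit over the 12 groups with 24 residual degrees of freedom, with Benjamini-Hochberg adjustment over 15114 genes and a threshold of 0.05. The method was tested on simulated data drawn from a single mean profile, without a shift between short and long genes or libraries that stood apart. That test does not cover these features of the data. Levels are CPM divided by TMM factors, and groups overlap where the ranges of their 3 libraries do. Alternatives were DESeq2 1.42.0, no TMM factors, other filters, a replicate block, only the groups compared, each library left out and, chosen after the data were seen, the omission of 7 libraries and offsets for gene length (median log ratio in 20 length bins). All 10 genes are described. In each list the text names genes called the same way in all 4 conditions or in all 3 genotypes, at most 4 or 3 of them by size of change. A few list genes that went the other way are named as well. The 10 genes and the lists were chosen with earlier results of these data known. Counts from 13602728 to 22467187 per library limit precision for low genes. A count of 0 allows up to 3 counts, or 0.173 CPM at the median total, for counting error only. Motif positions count bases before the start in the GENCODE annotation of GRCm39. A few single-gene values are not reported here.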

Additional observations from a re-analysis of the deposited data

Results flagged for a closer look

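The response to calcium or to culture time differed between genotypes for 34 gene and response pairs among the 10 genes, by an interaction term in the quasi-likelihood test of edgeR after Benjamini-Hochberg adjustment. Values are differences of log2 fold changes, PKP4-KO or Rescue minus WT. The calcium response of PKP4-KO at 24 h differed for Fos (-1.64), Jun (0.87), Junb (-0.97) and Maff (-1.31), with adjusted p = 0.00861 to 0.0404. At 72 h it differed for Fos (-2.03), Fosb (-3.32), Fosl1 (-2.57), Junb (-0.92), Egr1 (-2.03), Maff (-1.81) and Myc (-1.08), with adjusted p = 1.12e-04 to 0.0256.

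The time response of PKP4-KO in LCM differed for Fos (2.00), Fosl1 (1.78), Junb (0.75) and Maff (3.26). In HCM it differed for Fos (1.61), Fosl2 (0.63), Jun (-0.84), Junb (0.80), Egr1 (-3.15), Maff (2.76) and Myc (-0.94), where Fosl2 and Junb took the opposite sign without TMM factors. For Rescue, the calcium response at 24 h differed for Egr1 (-1.82), and at 72 h for Fos (-3.00), Fosb (-2.35), Fosl1 (-4.12), Fosl2 (0.54), Junb (-1.24), Egr1 (-2.47) and Maff (-1.40). Its time response differed in LCM for Fosl1 (1.81) and Maff (1.17), and in HCM for Fos (-1.40) and Egr1 (-1.46).

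Of these differences, 9 were lost when single libraries, each on its own, were left out. In the calcium response of PKP4-KO at 24 h, Jun was lost without WT 24 h LCM replicates 1, 2 and 3, WT 24 h HCM replicates 1 and 2, PKP4-KO 24 h LCM replicates 1 and 2 and PKP4-KO 24 h HCM replicates 1 and 2 (0.65 to 0.93, adjusted p = 0.0522 to 0.126), and Maff without WT 24 h LCM replicate 1, WT 24 h HCM replicate 2, PKP4-KO 24 h LCM replicate 2 and PKP4-KO 24 h HCM replicate 2 (-1.23 to -1.19, adjusted p = 0.0518 to 0.0596). Fosb at 72 h was lost without WT 72 h LCM replicates 2 and 3, WT 72 h HCM replicate 3, PKP4-KO 72 h LCM replicate 2 and PKP4-KO 72 h HCM replicate 3 (-3.32 to -2.69, adjusted p = 0.0520 to 0.0799). In its time response, Junb in LCM was lost without WT 24 h LCM replicates 2 and 3, WT 72 h LCM replicates 2 and 3, PKP4-KO 24 h LCM replicates 1 and 3 and PKP4-KO 72 h LCM replicates 1 and 2 (0.63 to 0.79, adjusted p = 0.0621 to 0.103), and Fosl2 in HCM without PKP4-KO 72 h HCM replicate 1 (0.48, adjusted p = 0.0621). For Rescue, Egr1 at 24 h was lost without WT 24 h LCM replicates 1, 2 and 3, WT 24 h HCM replicate 1, Rescue 24 h LCM replicates 1 and 2 and Rescue 24 h HCM replicates 1, 2 and 3 (-1.89 to -1.66, adjusted p = 0.0526 to 0.112), and Maff in LCM without WT 24 h LCM replicates 2 and 3, WT 72 h LCM replicate 2, Rescue 24 h LCM replicates 1 and 2 and Rescue 72 h LCM replicates 2 and 3 (0.97 to 1.19, adjusted p = 0.0521 to 0.113). The differences between Rescue and WT in the calcium response at 72 h of Fosb (adjusted p = 0.0484) and Fosl2 (adjusted p = 0.0485) were called in 17 and 14 of the 36 fits that each left out 1 library, with values of -2.68 to -1.96 and 0.42 to 0.60 and adjusted p = 0.0309 to 0.160 and 0.0328 to 0.159.

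Other settings also ended calls. Without TMM factors none of the calls in the calcium response at 24 h passed: Fos was -1.37, adjusted p = 0.185, Jun 1.14, adjusted p = 0.0708, Junb -0.70, adjusted p = 0.233 and Maff -1.02, adjusted p = 0.0577 in PKP4-KO, and Egr1 -1.61, adjusted p = 0.192 in Rescue. Neither did those in the time response of Rescue in HCM, with -1.12, adjusted p = 0.159 for Fos and -1.16, adjusted p = 0.0607 for Egr1. In the time response of PKP4-KO, Fos (0.75, adjusted p = 0.228), Fosl2 (-0.21, adjusted p = 0.592) and Junb (-0.02, adjusted p = 0.977) were lost in HCM and Junb in LCM (0.57, adjusted p = 0.305). In the calcium response of Rescue at 72 h, Fosb (-1.86, adjusted p = 0.0941) and Junb (-0.79, adjusted p = 0.0521) were lost. Without the 7 libraries that stood apart, calls were lost for Fosb in the calcium response at 72 h of PKP4-KO (-2.62, adjusted p = 0.0652) and Rescue (-1.73, adjusted p = 0.239) and for Fosl2 in that of Rescue (0.46, adjusted p = 0.0996). Jun in the calcium response of PKP4-KO at 24 h (0.73, adjusted p = 0.0537) and Junb in its time response in LCM (0.62, adjusted p = 0.0769) were lost as well. With length offsets, Fos in the time response of Rescue in HCM (-1.22, adjusted p = 0.0578), Junb in that of PKP4-KO in LCM (0.72, adjusted p = 0.0557) and Fosl2 in the calcium response of Rescue at 72 h (0.05, adjusted p = 0.890) did not pass.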

How the results depend on the processing

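The counts of the 10 genes called in each kind of comparison, and that of list genes, stayed within 1.5 times under every alternative. Within single comparisons they moved more, and the numbers called higher and lower at 72 h HCM in PKP4-KO turned without TMM factors. In WT at 72 h against 24 h in LCM, 2 genes were called with all libraries and 6 without the 7 that stood apart. Of 152 called differences, 85 held in all alternatives and 110 whenever 1 library was left out. Calls were lost for 41 of them without TMM factors, 22 with gene length offsets, 28 with only the groups compared in the fit, 24 without a filter, 11 with a replicate block, 9 without the 7 libraries that stood apart, 3 of 144 with at least 10 counts in every library and 2 with DESeq2. With 10 counts in every library Fosb was not tested. Of 168 differences not called, 52 were called under at least 1 alternative.

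The sign changed in 10 cases, and the cause was not tested. Without TMM factors, Rescue against PKP4-KO at 72 h HCM was 0.33 for Fos, 0.68 for Jun, 0.65 for Junb and 0.18 for Maff. The time response in PKP4-KO in HCM was -0.34 for Fosl1 and -0.084 for Junb, and its difference from WT was -0.21 for Fosl2 and -0.018 for Junb. With length offsets, Fosl2 in Rescue against PKP4-KO was -0.083 at 72 h LCM and -0.14 at 72 h HCM.

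Same-numbered libraries share only a number: r of their deviations was -0.65 to 0.72, and over 0.1 in 21 of 72 pairs and in all 3 pairs of 2 of 24 comparisons. A replicate block kept 141 of the 152 calls. Fosb, with 0 to 44 counts, is limited by depth.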
